A study of Homo sapiens with 5 samples.

Results

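CTBP1-AS and CTBP1 are a long noncoding RNA and the protein-coding gene it lies antisense to, and they are 2 of the 25702 genes in a table of RNA recovered with the RNA-binding protein PSF from prostate cancer cells. They were taken by their gene symbols, CTBP1-AS (Entrez ID 285463, 3886 bases) and CTBP1 (Entrez ID 1487, 2483 bases). The series has 5 samples of the human prostate cancer line LTAD, grown in charcoal-stripped, phenol red-free medium and given DMSO vehicle or 5 µM of No.10-3, a small molecule known here by its code name. RNA was sequenced from 1 vehicle PSF immunoprecipitate (vehicle PSF-RIP), 2 No.10-3 PSF immunoprecipitates (No.10-3 PSF-RIP, replicates 1 and 2) and 2 inputs, 1 of vehicle and 1 of No.10-3 cells. The labels list no control immunoprecipitation among these 5 samples and do not say whether the treated replicates came from separate cultures, so p-values measure only the spread between these libraries, which may be technical. Which input column came from vehicle cells and which from No.10-3 cells is not marked in the table. Both inputs therefore served as a single reference and are called here, by their totals, the shallower (3083063 counts) and the deeper (4010376 counts).

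PSF, encoded by SFPQ, is a nuclear protein that binds RNA and DNA and can recruit histone deacetylase complexes of the Sin3 type to genes. CTBP1-AS is an androgen-induced antisense RNA known in prostate cancer for binding PSF and guiding repression of CTBP1 and of other genes. CtBP1, the protein made from CTBP1, is a corepressor that joins DNA-binding repressors to histone-modifying enzymes and restrains androgen receptor signalling. Another gene of the locus, CTBP1-DT, is a long noncoding RNA that starts beside the CTBP1 promoter and runs away from it, and it is given beside the pair throughout.

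In the RefSeq gene table of GRCh38.p14, the CTBP1-AS model covers the end of CTBP1 on chromosome 4 and reaches past it, and the CTBP1-DT model covers the other end. Neither the counting tool nor its strand setting is given in the sources used here. Reads from the stretches where these models overlap may therefore have been counted for either gene, and the values of all 3 genes are uncertain to that extent. The promoter table from RefSeq (GRCh38.p14, 250 bases before to 50 after a start) holds 3 windows for CTBP1 and 1 for CTBP1-DT, and no entry was matched for CTBP1-AS. Of the CTBP1 windows, the one that overlaps the CTBP1-DT window is printed. It ends before the start of CTBP1-DT, so the shared bases lie upstream of that start. The capitals mark the 191 bases that also lie in the CTBP1-DT window on the opposite strand, and the window lies at chr4:1249081-1249380 on the minus strand.
CTBP1 promoter: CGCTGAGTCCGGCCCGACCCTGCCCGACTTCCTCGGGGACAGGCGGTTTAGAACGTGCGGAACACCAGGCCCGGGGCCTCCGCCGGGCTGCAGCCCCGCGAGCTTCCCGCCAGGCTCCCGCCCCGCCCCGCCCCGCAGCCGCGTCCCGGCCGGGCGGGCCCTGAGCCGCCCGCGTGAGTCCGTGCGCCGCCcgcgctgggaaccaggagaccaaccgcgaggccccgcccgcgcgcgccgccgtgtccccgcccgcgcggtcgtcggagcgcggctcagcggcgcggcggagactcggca

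This window is 80.7% G and C with 53 CpG dinucleotides, against medians of 58.7% and 14 over 35116 windows. The GC box GGGCGG, read on both strands with overlaps counted, occurs 8 times in it and at least once in 45.0% of all windows. The hexamer AGAACA, part of the androgen response element, and the TATA box TATAAA are in none of the 4 windows of the locus, and 14.8% and 11.5% of all windows hold them on either strand.

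The libraries differed in make-up before any gene is compared. They held 1519362 to 4010376 counts over genes, and 5 abundant RNAs (RN7SK, RPPH1, RN7SL1, RN7SL2 and RMRP) took 51.7 to 55.0% of an input against 2.63 to 7.81% of a PSF-RIP library. Mitochondrial genes took 24.4 to 26.3% of an input and 6.91 to 12.2% of a PSF-RIP library. Scaled to totals, the median gene was 2.42 higher in PSF-RIP on the log2 scale, and 0.08 higher once libraries were scaled with TMM factors, which take most genes as unchanged. The part of either group of RNAs in this shift was not tested. The main values below use TMM factors and say how a gene stood relative to other genes, not how much RNA PSF held. All 13 prostate luminal markers on the list had counts in every library (summed 1007 to 5471 CPM, that is, counts scaled to a common library size), while markers of basal, stromal, immune, endothelial and neuroendocrine cells summed to 0 to 75.2 CPM per type, with COL1A1 the largest among them.

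Both RNAs of the pair were present in every library, CTBP1 always above its antisense RNA. CTBP1-AS had 19 and 14 counts in the shallower and deeper input, 130 in vehicle PSF-RIP, and 45 and 121 in No.10-3 PSF-RIP replicates 1 and 2. Scaled to totals, these are 6.16 and 3.49 CPM in the inputs against 59.6, 29.6 and 35.9 CPM in PSF-RIP. On this scale every PSF-RIP library lay far above both inputs, as most genes did. With TMM factors CTBP1-AS stood at 16.9 and 9.01 CPM in the inputs and at 31.0, 16.6 and 17.5 CPM in PSF-RIP. On that scale only vehicle PSF-RIP stood clearly above the inputs, and replicate 1 lay just under the shallower input, so the groups overlapped.

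CTBP1 had 48 and 36 counts in the inputs, 247 in vehicle PSF-RIP and 202 and 377 in No.10-3 replicates 1 and 2. With TMM factors it stood at 42.7 and 23.2 CPM in the inputs and at 58.9, 74.7 and 54.4 CPM in PSF-RIP. All 3 PSF-RIP libraries lay above both inputs, with no overlap, a pattern found at 30.1% of the 13321 genes tested. CTBP1-DT had 50, 63, 193, 140 and 268 counts in the same order of libraries, which with TMM factors are 44.5 and 40.6 CPM in the inputs and 46.0, 51.8 and 38.7 CPM in PSF-RIP. Its inputs and PSF-RIP libraries overlapped.

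**Figure D1:**
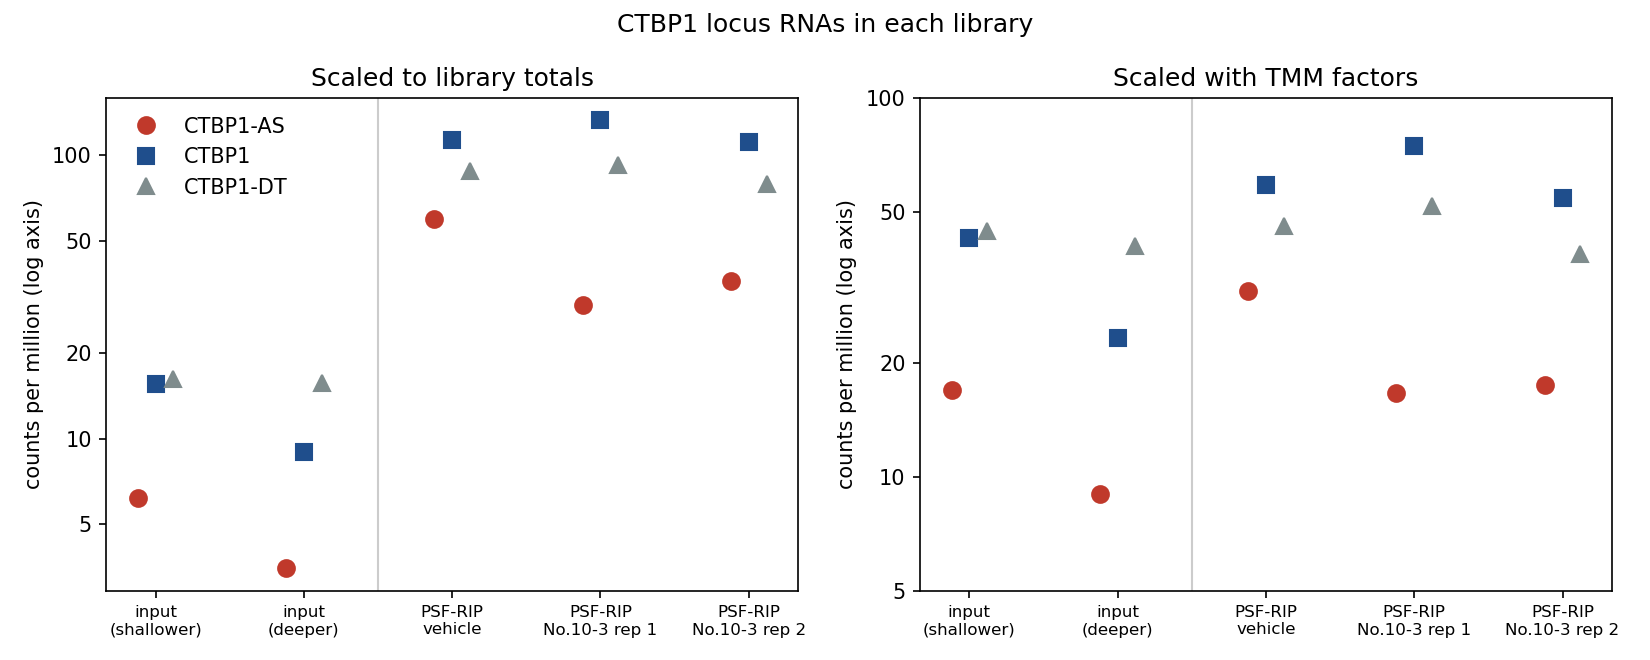
CPM (log axis) of CTBP1-AS, CTBP1 and CTBP1-DT in each of the 5 libraries, 1 point per library and gene, scaled to library totals at left and with TMM factors at right. On totals every PSF-RIP point lies above every input point of its gene, while with TMM factors CTBP1 alone keeps its PSF-RIP points (54.4 to 74.7) above its inputs (23.2 and 42.7).

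Per kilobase of gene, on TMM-scaled CPM, the order of the 3 RNAs could be read. In PSF-RIP, CTBP1 stood at 25.2 ± 4.29 (SD, n = 3, vehicle and No.10-3 libraries together), CTBP1-DT at 15.5 ± 2.24 and CTBP1-AS at 5.58 ± 2.07. Each RNA's lowest PSF-RIP library lay above the highest of the next RNA in this order. In the inputs CTBP1 stood at 13.3 ± 5.55 (SD, n = 2), CTBP1-DT at 14.5 ± 0.940 and CTBP1-AS at 3.33 ± 1.43. There CTBP1 and CTBP1-DT did not differ beyond their spread, and CTBP1-AS was again the lowest.

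PSF-RIP was compared with input to ask which RNAs PSF recovers beyond their level in the lysate. CTBP1-AS was 0.77 higher in PSF-RIP on the log2 scale (SE 0.45, 95% interval -0.12 to 1.67), a 1.71-fold difference that did not pass edgeR's quasi-likelihood test (adjusted p = 0.225). CTBP1 was 0.94 higher (SE 0.38, interval 0.19 to 1.69), a 1.92-fold difference with an edgeR adjusted p of 0.0802. CTBP1-DT differed by 0.10 (SE 0.35, interval -0.60 to 0.79) and stood at the median of all genes. The test called 2719 of 13321 genes, 20.4%, of which 1335 were higher (10.0%) and 1384 lower (10.4%). Neither member of the pair is among them.

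How these values are scaled decides the calls. With library totals alone CTBP1-AS was 3.13 and CTBP1 3.29 higher in PSF-RIP, both past edgeR's test (adjusted p = 1.65e-05 and 2.00e-06), but 11613 of 13321 genes were then called higher and the median gene was itself up by 2.42. Relative to the median gene, CTBP1-AS was 0.71 and CTBP1 0.87 higher with library totals, and 0.69 and 0.86 higher with TMM factors. The 2 inputs also decide the size, as CTBP1-AS was 0.36 higher without the deeper input and 1.27 without the shallower, and CTBP1 0.55 and 1.43. Leaving out vehicle PSF-RIP left CTBP1-AS 0.42 higher, and leaving out No.10-3 replicate 2 brought CTBP1 past the test (1.03, edgeR adjusted p = 0.0223). The count of genes called moved as well, to 602 without the shallower input, 1156 without the deeper, 1405 without vehicle PSF-RIP, 1675 without replicate 1 and 4800 without replicate 2.

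Set beside RNAs of its own kind, CTBP1-AS lay towards the upper end. Of 206 tested genes named as antisense RNAs, 25 had a larger difference than its 0.77, and their median was -0.71. In that class 0 were called higher (against 10.0% of all genes) and 35 lower (17.0%, against 10.4%) by edgeR (adjusted p under 0.05), and the lower calls were 14 without the shallower input, 18 without the deeper and 22 without vehicle PSF-RIP. At an unadjusted p under 0.05, 6 were higher and 63 lower, against 2511 and 2267 of all 13321 genes, and DESeq2 called 0 higher and 27 lower. Without No.10-3 replicate 2, 7 antisense RNAs were called higher, and on library totals the direction turned, with 133 higher and 0 lower. Among the 547 tested genes that RefSeq lists as long noncoding RNAs, 63 lay above CTBP1-AS, the median was -0.61, and 3 were called higher (0.548%) and 96 lower (17.6%). The lower calls were 42 without the shallower input and 57 without the deeper, and the higher calls 0 without the shallower input, 1 without vehicle PSF-RIP and 16 without replicate 2; on library totals 364 were higher and 2 lower. CTBP1, with 2640 of 11819 protein-coding genes above it, lay less far from its class, whose median was 0.14.

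**Figure D2:**
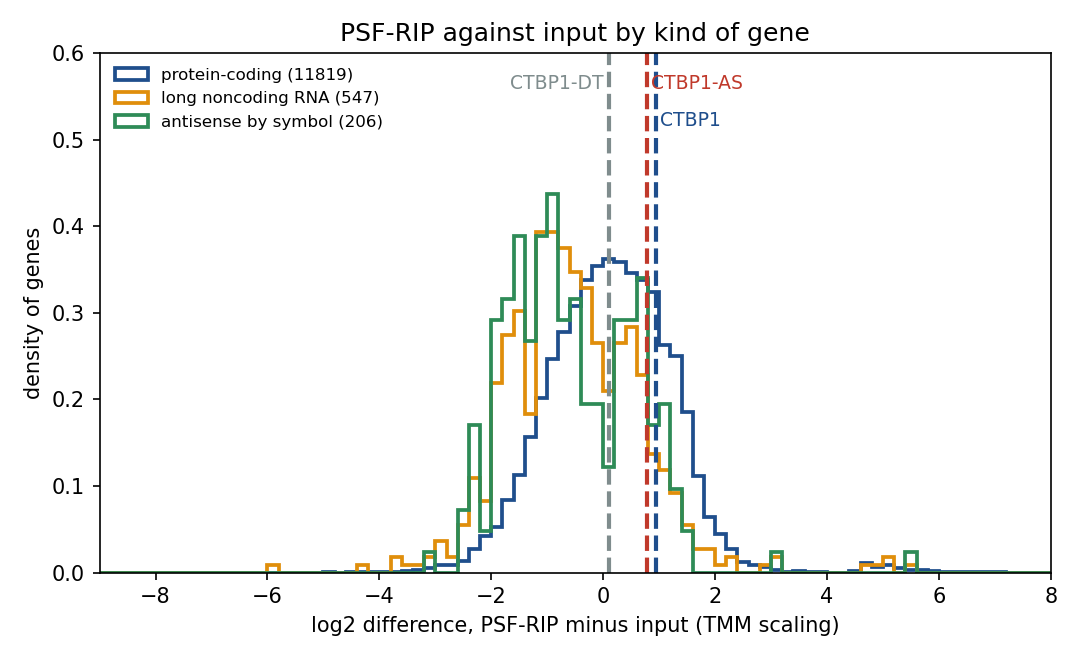
Distribution of the log2 difference between PSF-RIP and input (TMM scaling) over tested protein-coding genes, long noncoding RNAs and genes named as antisense RNAs, with the values of CTBP1-AS (0.77), CTBP1 (0.94) and CTBP1-DT (0.10) as dashed lines. The noncoding classes centre below 0, at -0.61 and -0.71, and both members of the pair lie to the right of those centres.

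The ratio of CTBP1-AS to CTBP1 within a library does not depend on scaling between libraries. CTBP1-AS made up 28.4% of the counts of the pair in the shallower input (exact Clopper-Pearson 95% interval 18.0 to 40.7%) and 28.0% in the deeper (16.2 to 42.5%). It made up 34.5% in vehicle PSF-RIP (29.7 to 39.5%), 18.2% in No.10-3 replicate 1 (13.6 to 23.6%) and 24.3% in replicate 2 (20.6 to 28.3%). These intervals cover counting error only. The inputs thus lay between vehicle PSF-RIP, the highest, and the No.10-3 libraries, the lowest, and their intervals overlapped those of vehicle PSF-RIP and of both treated libraries. Per length, the ratio of antisense to sense was 0.253 and 0.248 in the inputs, 0.336 in vehicle PSF-RIP and 0.142 and 0.205 in the treated libraries.

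The mean log2 ratio, with 0.5 counts added to each gene, was -1.57 ± 0.62 in PSF-RIP (SD, n = 3) and -1.32 ± 0.01 in input (n = 2), a difference of -0.25 (two-sided exact permutation test p = 0.8, the smallest this design allows being 0.2). With 3 libraries against 2 this test could not reach 0.05 whatever the values. The sign of this difference turned to 0.044 without No.10-3 replicate 1, and the difference was -0.57 without vehicle PSF-RIP. Over 183 antisense and sense pairs found by symbol, the median difference was -0.80 (quartiles -1.63 and 0.07), and 123 pairs lay below the CTBP1 pair. In 84 pairs all PSF-RIP ratios lay under both inputs and in 12 all lay above, whereas the CTBP1 pair overlapped.

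**Figure D3:**
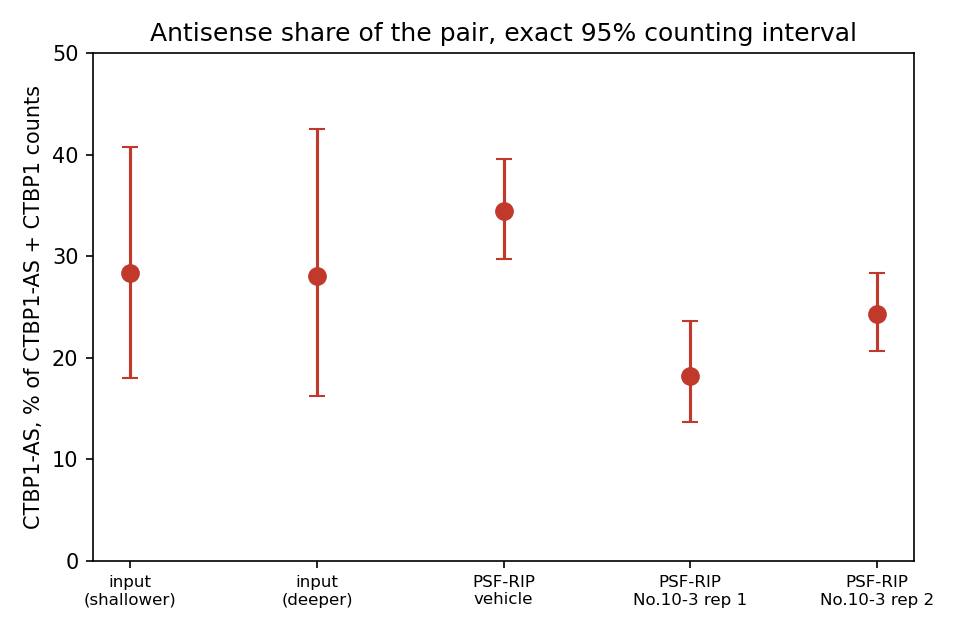
Share of CTBP1-AS in the counts of CTBP1-AS and CTBP1 together (percent) in each library, with exact 95% intervals that cover counting error only. Vehicle PSF-RIP is highest at 34.5%, and the interval of neither No.10-3 library (up to 23.6% and 28.3%) reaches that of vehicle (from 29.7%).

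Relative to other genes, CTBP1-AS stood lower in each No.10-3 PSF-RIP library than in the single vehicle library. CTBP1 and CTBP1-DT stood above vehicle in replicate 1 and below it in replicate 2. Scaled among the PSF-RIP libraries alone, the level of CTBP1-AS was 59.5 CPM in the vehicle library, 32.0 CPM in replicate 1 and 33.4 CPM in replicate 2. Both treated libraries lay under vehicle and close to each other, at 0.538 times (exact counting interval 0.374 to 0.760) and 0.560 times (0.434 to 0.723) its level. For CTBP1 the vehicle library gave 113 CPM, replicate 1 gave 144 and replicate 2 gave 104, ratios of 1.27 (1.05 to 1.54) and 0.919 (0.781 to 1.08) that lie on opposite sides of vehicle. For CTBP1-DT they gave 88.4, 99.6 and 73.9 CPM in that order, also on opposite sides.

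The fitted log2 change of CTBP1-AS was -0.86 (SE 0.58, 95% interval -1.99 to 0.27), which did not pass edgeR's test (adjusted p = 0.998). That of CTBP1 was 0.13 (SE 0.57, interval -0.98 to 1.24, edgeR adjusted p = 0.998) and that of CTBP1-DT -0.03 (SE 0.56). The vehicle group is 1 library, assumed to vary like the treated pair, and edgeR called 0 of 13766 genes (0%), with 563 at an unadjusted p under 0.05 and DESeq2 also called 0, with 123 at an unadjusted p under 0.05. A position under vehicle in both treated libraries was common, at 32.6% of genes. At 449 genes, 3.26%, the drop in both was at least as large as the smaller of the 2 drops of CTBP1-AS. Both changes share the vehicle library, so their closeness does not count as replication of the vehicle level. In bulk RNA a lower recovery by PSF and less CTBP1-AS in the treated cells cannot be told apart, since the No.10-3 input is not identified.

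The antisense to sense ratio was lower than in vehicle PSF-RIP in both treated libraries. Its odds in replicate 1 were 0.423 times those of vehicle (exact interval 0.281 to 0.632) and in replicate 2 0.610 times (0.449 to 0.828), log2 changes of -1.23 and -0.71. These intervals compare single libraries and not conditions. The same direction in both replicates was found at 71 of 183 pairs (38.8%), the opposite at 66, and 28 pairs, the CTBP1 pair included, were lower by at least 0.71 in both. Of the 69 pairs with at least 100 antisense counts, 25 were lower in both and 11 by that much. TTN-AS1 and TTN moved likewise (-1.11 and -1.80), while LIFR-AS1 and LIFR (0.85 and 0.16), TPT1-AS1 and TPT1 (0.93 and 0.15) and SRRM2-AS1 and SRRM2 (0.13 and 0.58) moved the other way, these being the 4 pairs with the most counts.

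**Figure D4:**
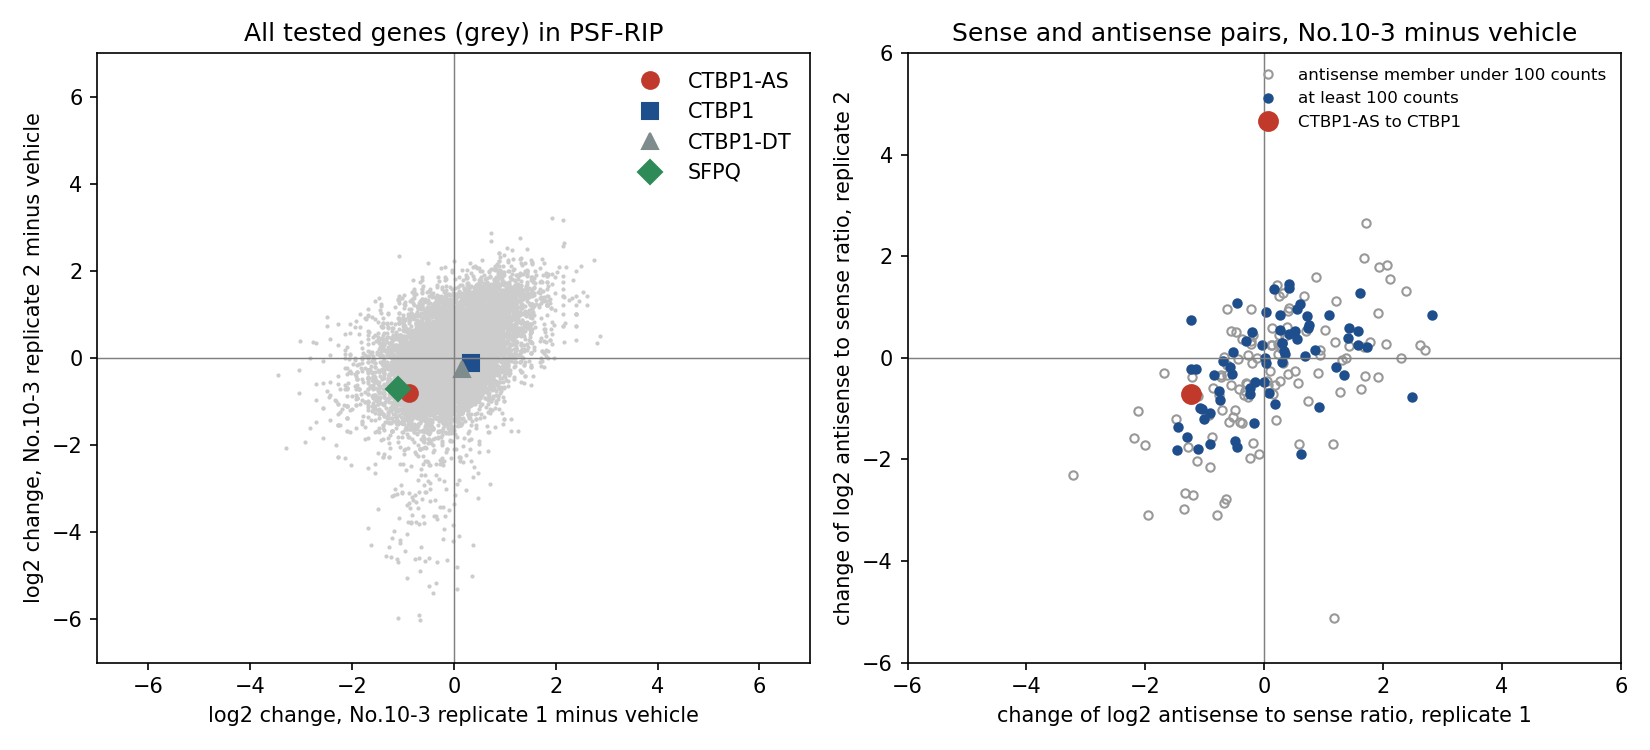
Left, log2 change from vehicle PSF-RIP in No.10-3 replicates 1 and 2 for all tested genes (grey) and 4 named ones; right, the same for the log2 antisense to sense ratio of 183 pairs. CTBP1-AS and SFPQ lie at the lower left (-0.88 and -0.82, -1.09 and -0.71). CTBP1 and CTBP1-DT lie above 0 in replicate 1 and below 0 in replicate 2. The CTBP1 pair at -1.23 and -0.71 has other pairs around it.

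The genes whose pattern over the 5 libraries was nearest to that of CTBP1-AS, by Euclidean distance between centred log2 CPM values, were RIC3 (0.0658), PCOLCE (0.116), an unnamed gene with Entrez ID 100506180 (0.164), SHROOM1 (0.178) and RAB36 (0.218), against a median distance of 1.60. RIC3 had 7, 5, 48, 16 and 43 counts in the order shallower input, deeper input, vehicle, replicate 1 and replicate 2. SHROOM1 had 12, 10, 98, 31 and 86. Input counts were lower still at PCOLCE and RAB36 (4 and 3 each) and at the unnamed gene (2 and 1), near the floor. Being the nearest of all tested genes, these are close by selection. The nearest to CTBP1 were MAPK13 (0.123), CLDN3 (0.126), CASTOR1 (0.144), DLG4 (0.149) and FBXL18 (0.179), and DLG4 had 33, 23, 181, 147 and 269 counts. CTBP1 itself ranked 1025 in nearness to CTBP1-AS among the 13321 genes tested, at a distance of 0.901, under the median of 1.60.

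Around CTBP1, the 4p16.3 neighbours were often higher in PSF-RIP than in input. Of 20 tested neighbours 9 were called higher by edgeR (adjusted p under 0.05) and 0 lower, against 10.0% and 10.4% of all genes, and their median was 1.15. The count of 9 fell to 0 without the shallower input and to 2 without the deeper, with medians of 0.85 and 1.60, and was 6 by DESeq2. At an unadjusted p under 0.05, 11 were higher and 0 lower. GAK, the cyclin G-associated kinase, was 1.76 higher (SE 0.44), DGKQ, a diacylglycerol kinase, 1.50 (SE 0.40), FGFRL1 1.46 (SE 0.39) and LETM1 of the mitochondrial inner membrane 1.40 (SE 0.41). TMEM175 was 1.54 higher (SE 0.53), and IDUA, the lysosomal iduronidase, had 0 and 1 counts in the inputs, too few to size its difference. SPON2, next to CTBP1, stood at 137 and 106 TMM-scaled CPM in the inputs and at 282, 325 and 323 in PSF-RIP, with no overlap. All PSF-RIP values lay above both inputs at 30.1% of all genes tested. SPON2 was 1.35 higher (SE 0.39) and is among the 9 called. Among other abundant neighbours, NSD2 differed by 0.73 and PCGF3 by 0.32, neither past the test. CTBP1-AS lay below 14 of these 20 and CTBP1 below 13. With No.10-3, 13 of the 20 stood under vehicle in both treated libraries and 3 above, against 32.6% and 33.1% of all genes, and 0 passed edgeR's test.

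**Figure D5:**
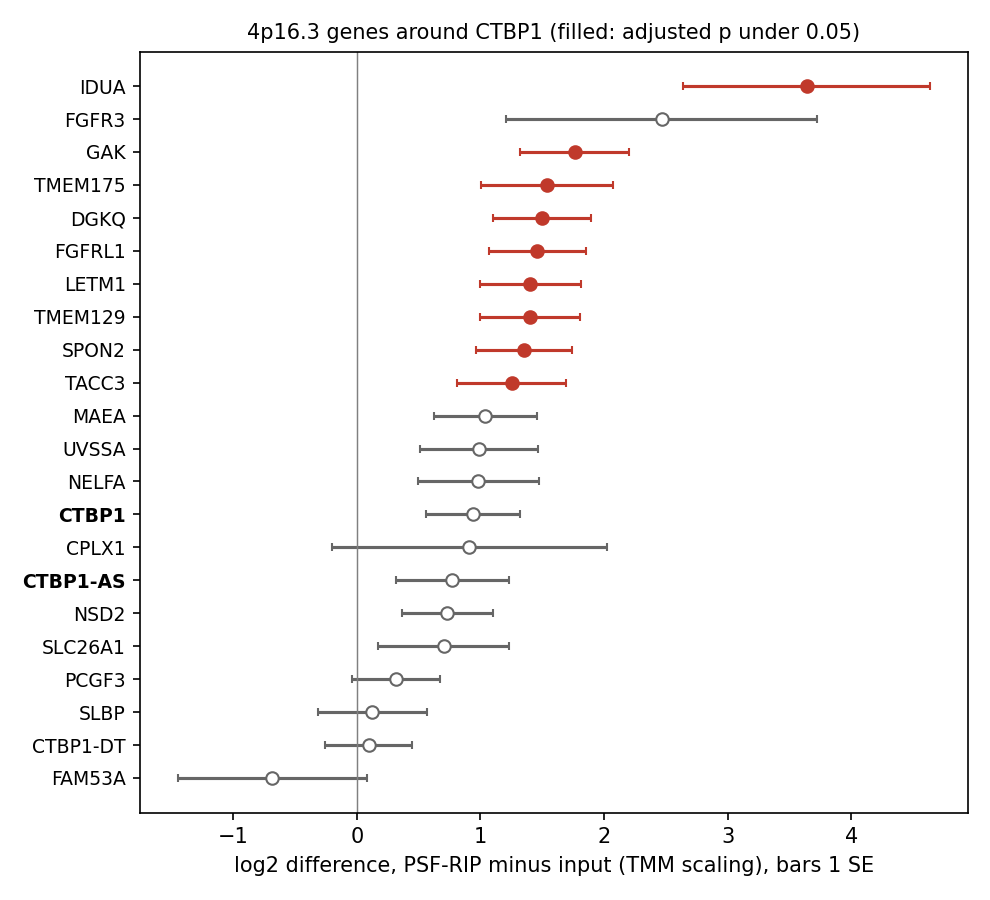
Log2 difference between PSF-RIP and input (TMM scaling) for CTBP1-AS, CTBP1 and 20 tested 4p16.3 neighbours, ordered by value, with bars of 1 SE and filled points where edgeR's adjusted p is under 0.05. The 9 filled points lie from 1.25 (TACC3) upwards, and the pair lies below them at 0.77 and 0.94.

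For CtBP1 and the proteins it works with, mRNAs of the corepressor complex went both ways in PSF-RIP against input. Of 26 tested, CTBP1 itself included, edgeR called 3 higher (11.5%) and 4 lower (15.4%), with a median of -0.05. These shares are close to the 10.0% and 10.4% of all genes. The histone methyltransferases EHMT2 (2.52, SE 0.47) and EHMT1 (1.26, SE 0.39) and their partner WIZ (1.38, SE 0.42) rose, all with larger differences than CTBP1. LCOR (-1.20, SE 0.39), RBBP8 (-1.30, SE 0.45) and the homeobox repressor TGIF1 (-1.44, SE 0.40) fell. Among the most abundant members, RREB1 differed by 1.01 (SE 0.37) and ZNF217 by -0.40 (SE 0.36), neither past the test. The higher calls were 1 without the shallower input, 1 without vehicle PSF-RIP, 1 without replicate 1 and 7 without replicate 2. The lower calls were 0 without either input or without replicate 1, 1 without vehicle PSF-RIP and 8 without replicate 2.

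For the PSF and Sin3 complex through which CTBP1-AS is known to act, 2 of 24 mRNAs were called higher (8.33%, against 10.0% of all genes) and 0 lower (against 10.4%), with a median of 0.31. These were SIN3B (1.24, SE 0.39), a Sin3 scaffold, and BRMS1 (1.83, SE 0.55). At an unadjusted p under 0.05, 6 were higher and 1 lower, and DESeq2 called 2 and 0. The higher calls fell to 0 without either input or without vehicle PSF-RIP, and without replicate 2 there were 6 higher and 2 lower. SFPQ mRNA, which encodes PSF, differed by 0.64 between PSF-RIP and input (SE 0.39, edgeR adjusted p = 0.240). With No.10-3 it stood at -1.09 and -0.71 from vehicle in replicates 1 and 2, beside -0.88 and -0.82 for CTBP1-AS. The fitted change of SFPQ was -0.89 (SE 0.58). All these changes share the single vehicle library, and 32.6% of all genes stood under vehicle in both treated libraries. Whether the 2 RNAs fell together was not tested. NONO, OGT and PHF12, with SFPQ the most abundant members, differed from input by 0.20, 0.61 and 0.90, none past the test.

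Of the androgen receptor and its cofactors, which CtBP1 opposes, 2 of 18 were called higher over input (11.1%, against 10.0% of all genes) and 0 lower (against 10.4%), with a median of 0.53. The acetyltransferase CREBBP was 1.13 higher (SE 0.38), while FOXA1 (0.11), FKBP5 (-0.32) and DDX5 (0.93) did not pass. At an unadjusted p under 0.05, 5 were higher and 1 lower, and DESeq2 called 2 and 0. The higher calls fell to 0 without either input and to 1 without vehicle PSF-RIP or replicate 1, and without replicate 2 there were 5 higher and 2 lower. Of genes linked to CtBP repression, 0 of 15 were called higher (against 10.0% of all genes) and 1 lower (6.67%, against 10.4%). The lower one was the apoptosis gene PMAIP1 (-1.37, SE 0.49), whose call was lost without any 1 of the inputs, vehicle PSF-RIP or replicate 1. The lower calls were 3 without replicate 2, and 2 with upper quartile scaling or with DESeq2 size factors. At an unadjusted p under 0.05, 0 were higher and 2 lower, and DESeq2 called 0. CDH1, the epithelial cadherin, differed by -0.50 and the p21 gene CDKN1A by 0.06, neither past the test. Of 10 tested long noncoding RNAs of prostate cancer and paraspeckles 0 were called, against 20.4% of all genes. Of these RNAs 0 lay above CTBP1-AS, against 3519 of all 13321 genes, and so short a list cannot set either count apart from those shares. MALAT1 differed by -0.18, NORAD by -0.49, TUG1 by -0.69 and NEAT1, the scaffold of paraspeckles, by -1.12. At an unadjusted p under 0.05, 0 of them were higher and 3 lower, DESeq2 called 1 lower, and edgeR called 3 lower without replicate 2 and 1 without vehicle PSF-RIP. Of all these lists, 0 members passed edgeR's test for No.10-3 against vehicle, and 2 were at an unadjusted p under 0.05.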

How the data were processed

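RIP-seq of 5 LTAD samples was used from 1 deposited table. The authors deposited whole-number counts per Entrez gene and a gene length for each library; they were taken as raw counts. The submitters' processing notes list TopHat2 2.1.0, Bowtie2 2.2.6, Bowtie and hg19 with no role for each. The counter, its strand setting and its annotation were not found in these notes or the labels. Columns named for the compound were assigned to the No.10-3 PSF-RIP samples because the 2 columns named input take the 2 input samples. Genes without a symbol (1962, 0.110 to 0.504% of counts) were kept. RefSeq biotypes matched 23696 of 25702 IDs.

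Genes whose CPM averaged 1 or more over the libraries fitted were tested with edgeR 4.0.16 (R 4.3.3; TMM, glmQLFit, glmQLFTest, Benjamini-Hochberg, threshold 0.05): 3 PSF-RIP against 2 input libraries (3 residual degrees of freedom), and 2 No.10-3 against 1 vehicle PSF-RIP (1). SE is the log2 difference divided by the square root of F, and its 95% interval is the normal one. Log2 CPM used a prior count of 2. Ratios used exact permutation (SciPy 1.17.1). In simulated libraries, the first comparison recovered 1.0% of 2-fold and 93.5% of 4-fold changes (of 200, over 13321 genes), and the second 0%, 11.0% and, at 8-fold, 89.5% (over 13766). Only genes of higher mean CPM were changed, and all libraries of a comparison were drawn from a common profile at their full totals. The simulated inputs thus lacked the make-up of the real ones. Recovery may be lower for genes with as few input counts as CTBP1-AS. DESeq2 1.42.0, other scalings, filters and designs, and each library left out were alternatives.

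Members, lists and tests were chosen with earlier results of these data known. Named from each list were genes past the test (at most 6, by size) and the 4 of highest mean CPM, and for each member the 5 genes nearest in pattern. TACC3 and COL1A1 were named after their values were seen. Some genes that the rule names are not reported here. Intervals of shares, ratios and odds cover counting error only; those of fitted differences include the spread between libraries.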

Additional observations from a re-analysis of the deposited data

How the results depend on the processing

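In PSF-RIP against input, CTBP1-AS kept its direction in all 15 alternatives, from 0.36 to 3.13, and passed the test with library totals alone (3.13). CTBP1 kept its direction in the same 15, from 0.55 to 3.29, and passed with library totals (3.29) and without No.10-3 replicate 2 (1.03). Leaving out 1 library gave 0.36 to 1.27 for CTBP1-AS and 0.55 to 1.43 for CTBP1. With library totals 11662 genes were called, 11613 higher and 49 lower. With No.10-3 PSF-RIP alone against input 1529 were called, 663 higher and 866 lower, and CTBP1-AS was 0.43 higher, against 1.29 for vehicle PSF-RIP alone. A lone input or vehicle library was assumed to vary like the others. Leaving out 1 library gave 602 to 4800 calls, 87 to 2360 higher and 515 to 2440 lower, and the causes were not tested.

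For No.10-3 against vehicle, CTBP1-AS lay between -0.89 and -0.82 in 10 alternatives and was not called in the 8 with a test (adjusted p of 0.817 to 0.999), which each called 0 genes. CTBP1 turned to -0.12 without replicate 1 and was 0.34 without replicate 2, values with no test because no residual degrees of freedom remained among the PSF-RIP libraries. The antisense to sense ratio turned from -0.25 to 0.044 without replicate 1, within -0.57 to 0.044 over the libraries left out. The alternatives for the gene lists, antisense RNAs and long noncoding RNAs, given beside their counts, were chosen after seeing the data. Input counts of 14 to 48 limit the precision for the pair. No paired analysis was possible because the table does not show which input belongs to which treatment, so that no input could be set beside its own PSF-RIP library.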
